A study of Mus musculus with 7 samples.

Results

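Most of the genes described here encode proteins that write, remove and read marks on histones and DNA, or that move nucleosomes. They were chosen by symbol: the Kdm, Kmt, Setd (with Setdb), Hdac, Sirt, Ezh, Dnmt, Tet, Cbx, Smarc, Chd, Arid, Prdm and Brd families, plus Eed, Suz12, Ring1, Rnf2 and Bmi1, leaving out Kdm5d. This gave 122 of the 15415 genes in the deposited table. No threshold on measured values was used, but the families were picked with earlier results of these data known. The symbols also take in the non-coding RNA Chd3os, the pseudogene Smarca5-ps and Setd3, known as an actin methyltransferase. Of these 122, 119 had enough counts to be tested; Prdm14, Arid3b and Arid3c did not. RNA had been sequenced from live (DAPI-negative) hair follicle cells of mouse back epidermis, sorted as green fluorescent, which marks Lgr5 here, and negative for the leukocyte antigen CD45. All samples came from the strain C57Bl6 x B10D2: 3 Telogen samples (resting hair cycle, animals aged 45 days) and 4 Anagen samples (growing hair, animals aged 35 days). Neither group carried a treatment beyond shaving and depilation for harvest, per the labels. Age therefore cannot be told apart from phase, and no label says whether a sample was 1 mouse or a pool, and p-values therefore reflect only how these samples spread, which could be technical in part.

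Histone lysine methylation is mostly set by SET-domain methyltransferases and removed by lysine demethylases, and acetylation is removed by Hdac enzymes and by the NAD-dependent sirtuins. Polycomb repressive complexes silence developmental genes: the complex around Ezh1 or Ezh2 methylates histone H3 lysine 27, and the complex around Ring1 or Rnf2 ubiquitinates histone H2A. SWI/SNF, ISWI and CHD remodellers use ATP to slide or evict nucleosomes. In skin, Polycomb proteins, Hdac1 and Hdac2, DNA methyltransferases and SWI/SNF ATPases are known for holding the balance between epidermal and hair follicle stem cells and their differentiating progeny.

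Telogen libraries held 5097457 to 6453337 counts and Anagen libraries 13719893 to 17042690, without overlap, so depth cannot be told apart from phase either. The chromatin genes took 0.996% to 1.26% of the counts in Telogen libraries and 1.28% to 1.39% in Anagen libraries. The bulge markers Lgr5, Cd34 and Krt15 had counts in every library, and in Anagen their levels were 8.20-fold, 40.3-fold and 50.5-fold lower. The summed level of the 10 dividing-cell markers was 2.85 to 14.7 CPM in Telogen and 250 to 366 CPM in Anagen, CPM being counts relative to the normalised library size. All 10 rose, and Plk1, Bub1 and Cenpf had 0 counts in Telogen. The summed level of 6 fibroblast markers was 33.1 to 45.9 CPM in Telogen, 1073 and 1516 CPM in Anagen 1 and Anagen 2, and 81.1 and 103 CPM in Anagen 3 and Anagen 4, with Dcn and Lum at 0 counts in Telogen. Of the 6 fibroblast markers 5 rose, though Col1a2 overlapped between the groups, and Pdgfra did not pass (log2 fold change -1.61 ± 1.18). Leukocyte markers summed to 4.91 to 29.3 CPM over all 7 libraries. Cd3e and Cd3g had 0 counts in Anagen, while Cd68 was higher in every Anagen library, though it did not pass the test. Endothelial markers summed to 0 to 8.01 CPM. Cdh5 had 0 counts in Telogen and 261 in Anagen, Kdr and Emcn each had 0 and 2, and Pecam1 had 15 and 3. Melanocyte and Schwann cell markers stayed at or under 15.1 and 20.01 CPM. Summed levels went from 9890 to 14398 CPM in Telogen to 23057 to 29147 CPM in Anagen for keratinocyte markers, from 197 to 224 CPM to 2223 to 3003 CPM for hair matrix and sheath, from 618 to 1107 CPM to 17.7 to 28.2 CPM for suprabasal epidermis, and from 10422 to 14229 CPM to 2788 to 3557 CPM for bulge markers. Of the 7 bulge markers 5 fell, while Sox9 and Tcf7l1 rose (log2 fold changes of 1.32 ± 0.20 and 2.39 ± 0.85); Krt15 made up 60.9% to 74.9% of the bulge sum in Telogen and 3.41% to 6.90% in Anagen. Of the 4 keratinocyte markers Krt5, Krt14 and Trp63 rose, and Itga6 fell by 2.16 ± 0.21 on the log2 scale. Of the 5 hair matrix and sheath markers 4 rose, and Msx2 did not pass (log2 fold change -0.23 ± 0.36). Krt17 held most of that sum in Anagen, with 95.9 to 110 CPM in Telogen and 1909 to 2663 CPM in Anagen. Genes of dissociation stress summed to 3681 to 13619 CPM in Telogen, highest in Telogen 3, and to 2365 to 5145 CPM in Anagen. Since a library holds RNA from many sorted cells, fewer cells of a type and less RNA per cell cannot be told apart; the part of dividing cells and fibroblasts in the results below was not tested, and counts without Anagen 1 and Anagen 2 stand beside them.

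Chromatin genes were more often higher in Anagen than lower. Of the 119 tested, 42 rose (35.3%) and 20 fell (16.8%) by edgeR's quasi-likelihood test at an adjusted p under 0.05, while 57 did not pass. The background was 25.8% that rose and 23.7% that fell among all 12266 genes tested (49.5% in all). The median log2 fold change, Anagen over Telogen, was 0.54 for the chromatin genes and 0.09 for all genes. The libraries of the groups did not overlap for 53 members with higher and 20 with lower Anagen values, against 29.8% and 24.8% of all genes. A fold change of 2 or more went with the call in 33 members that rose (27.7%) and 19 that fell (16%), beside 21.8% and 19.6% of all genes. Without Anagen 1 and Anagen 2, 32 rose and 17 fell. The shares of all genes given above are from the fit with all libraries, so these 2 counts have no background beside them.

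**Figure D1:**
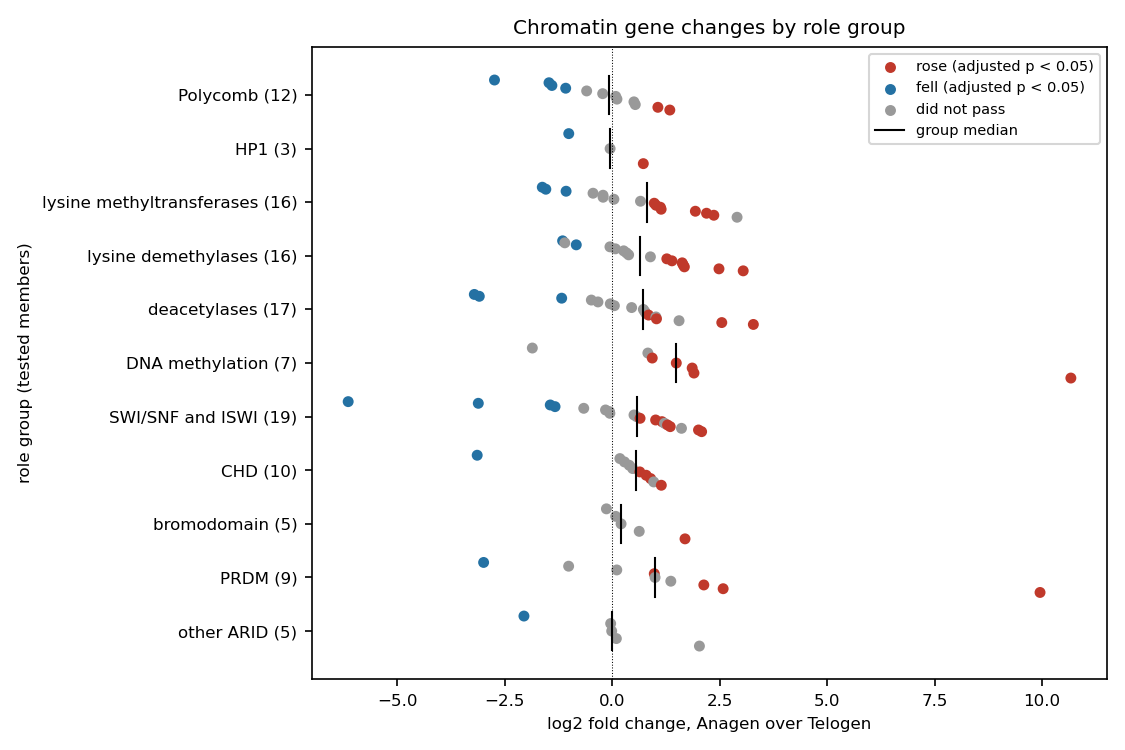
Log2 fold change (Anagen over Telogen, x axis) of the 119 tested chromatin genes in 11 role groups (y axis, number tested in brackets); each point is a gene, coloured by its call at adjusted p under 0.05, and black ticks are group medians. In all, 42 points are rises and 20 are falls, and both directions occur in 8 of the groups.

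The share of members that rose was highest among long genes. Gene length in the deposited table had a median of 4672 bases for the chromatin genes and 2756 bases for the whole table. Members that rose had a median length of 6171 bases and a median GC content of 51.8%; those that fell had 3326.5 bases and 44.8%. Of 40 tested members of 6000 bases or more, 55% rose and 2.5% fell, and of all 1416 tested genes of that length 40.7% rose and 15.7% fell. In the class from 2000 to 4000 bases, 16.7% of 30 members and 25.9% of all genes rose.

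**Figure D2:**
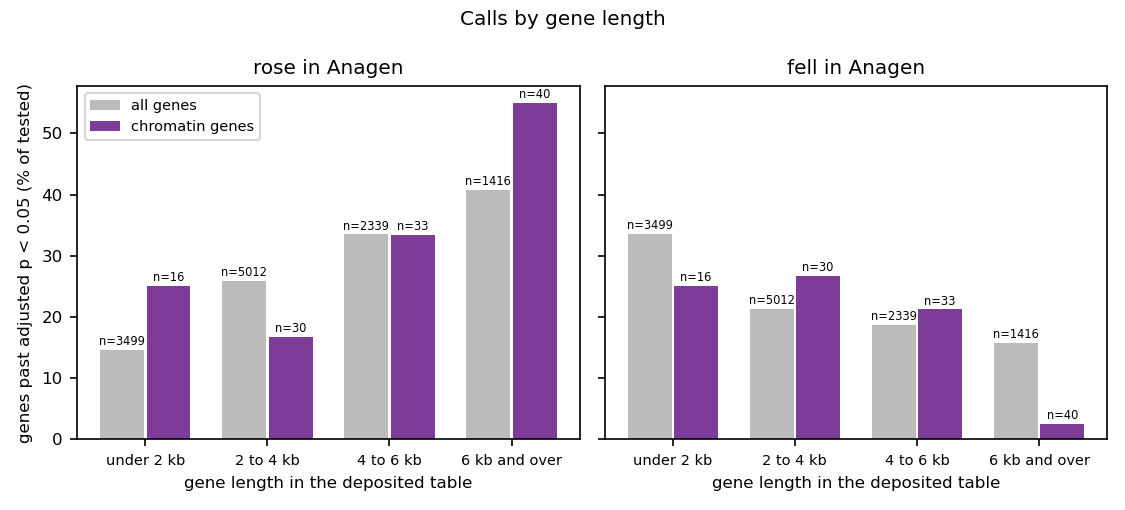
Share of tested genes that rose (left) or fell (right) in Anagen, in % of the tested genes of each length class, for all genes (grey) and chromatin genes (purple), with the number tested above each bar. In both sets the share that rose is highest at 6 kb and over (40.7% and 55%).

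When the fit carried offsets for gene length and GC content, the surplus of rises over the background was no longer there. With the offsets, 25 members rose (21%) and 27 fell (22.7%), beside 20.8% and 23.9% of all genes. By construction the offsets take away any difference between the groups that follows length or GC content, whatever its source. They lowered the median of all genes by 0.13 on the log2 scale, and the members' median went to 0.16. Of the 42 members that rose without offsets, 24 rose with them and 18 did not pass; of the 20 that fell, 19 fell with them and Cbx1 did not pass. Suz12 rose with the offsets alone, and Tet1, Smarcal1, Setd7, Kmt2c, Brd2, Prdm2, Smarcd2 and Brd3 fell with the offsets alone. For the members described below, the log2 fold change with the offsets is given where the call did not pass with them or where they moved a called fold by over 1.5 times.

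**Figure D3:**
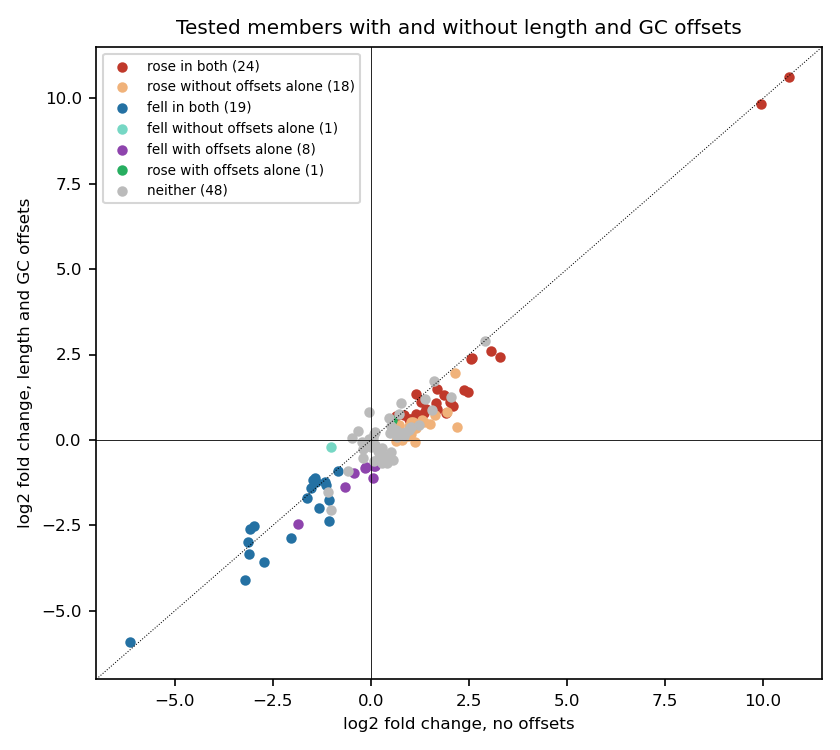
Log2 fold change of the 119 tested members without offsets (x axis) and with length and GC offsets (y axis); the dotted line marks equal values and colours give the calls in both fits. Points of the 18 members whose rise did not pass with offsets lie below the line.

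Across all 14 alternative fits and sample sets, 19 members rose in every one. They included Kdm5b, Kdm5c, Kdm1a, Kdm2a, Kdm3a, Kdm7a, Arid1a, Arid2, Smarca4, Setd1a, Setd2, Kmt2e, Tet2, Tet3, Hdac4, Sirt6, Dnmt3l and Prdm8. Another 16 fell in every one, among them Smarca1, Smarca2, Smarcd3, Smarce1, Sirt1, Sirt5, Hdac7, Kdm1b, Kmt2a, Setd3, Setdb2, Rnf2, Bmi1, Cbx6 and Chd3os. Values of single libraries are given below in the order 1 to 3 for Telogen and 1 to 4 for Anagen, fold changes are log2 values with their standard errors, and adjusted p-values are from edgeR's quasi-likelihood test with Benjamini-Hochberg adjustment over all genes tested.

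Among 19 tested SWI/SNF and ISWI genes, 7 rose (36.8%) and 4 fell (21.1%), beside 25.8% and 23.7% of all genes. With the offsets 5 rose and 6 fell, and 5 rose and 4 fell without Anagen 1 and Anagen 2. The exchangeable ATPases of SWI/SNF, Smarca4 (BRG1) and Smarca2 (BRM), moved in opposite directions. Smarca4 (NM_001174078, chromosome 9, 21616169 to 21704230; all gene coordinates are mm10) had 25.3, 12.8 and 23.8 CPM in Telogen and 82.8, 72.6, 77.1 and 99.3 CPM in Anagen. Every Anagen library was above every Telogen library, and the level rose 4.03-fold. Smarca2 (NM_011416, chromosome 19, 26605160 to 26778321) had 357, 311 and 316 CPM in Telogen and 120.4, 154, 118 and 130.3 CPM in Anagen. The lowest Telogen library was 2.01 times the highest Anagen library, and the level fell 2.51-fold. Smarca1 (SNF2L), the ATPase of an ISWI remodeller, had the steepest fall among the members, with 37.6, 36.1 and 47.6 CPM in Telogen and 0.504, 1.1, 0.58 and 0 CPM in Anagen. It was close to 0 in Anagen (NM_053123, chromosome X, 47809370 to 47892552), 70.3-fold lower (log2 fold change -6.75 without Anagen 2), whereas its paralogue Smarca5 had a log2 fold change of -0.05 ± 0.20. By edgeR's quasi-likelihood test with Benjamini-Hochberg adjustment the log2 fold changes were 2.01 ± 0.29 (adjusted p = 0.000248) for Smarca4, -1.33 ± 0.17 (adjusted p = 0.000134) for Smarca2 and -6.14 ± 0.64 (adjusted p = 3.02e-05) for Smarca1. With the offsets Smarca4 had 1.12 and Smarca2 -1.99, and both calls held.

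The bases just upstream of these 3 starts are shown because Smarca4 rose while the ATPase genes Smarca2 and Smarca1 fell; CG dinucleotides, the sites of DNA methylation, are in capitals. The sequences are from RefSeq on GRCm38.p6, the mm10 assembly, and each runs 5′ to 3′ on the gene's strand over the 250 bases before its RefSeq start, which for Smarca1 lies 61 bases from the start of the deposited gene model: Smarca4 at chr9:21615919-21616168, plus strand; Smarca2 at chr19:26604910-26605159, plus strand; Smarca1 at chrX:47892614-47892863, minus strand.
Smarca4: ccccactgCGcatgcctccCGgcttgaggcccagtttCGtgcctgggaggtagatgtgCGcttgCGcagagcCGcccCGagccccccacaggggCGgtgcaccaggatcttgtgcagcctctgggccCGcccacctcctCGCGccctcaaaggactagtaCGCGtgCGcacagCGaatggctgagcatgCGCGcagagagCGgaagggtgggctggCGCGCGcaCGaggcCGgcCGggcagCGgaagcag
Smarca2: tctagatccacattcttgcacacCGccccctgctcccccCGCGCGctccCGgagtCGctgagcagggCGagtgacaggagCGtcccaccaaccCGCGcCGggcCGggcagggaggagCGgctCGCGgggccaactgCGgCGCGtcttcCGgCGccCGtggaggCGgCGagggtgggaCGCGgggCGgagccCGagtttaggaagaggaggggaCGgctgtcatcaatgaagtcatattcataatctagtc
Smarca1: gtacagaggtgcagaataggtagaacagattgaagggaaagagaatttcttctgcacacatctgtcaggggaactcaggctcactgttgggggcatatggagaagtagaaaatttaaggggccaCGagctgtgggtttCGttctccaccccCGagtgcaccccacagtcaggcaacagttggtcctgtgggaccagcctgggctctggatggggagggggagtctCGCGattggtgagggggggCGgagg
The upstream windows of Smarca4 and Smarca2 held 25 and 28 CG dinucleotides, and that of Smarca1 held 6. The median was 21 over the 93 members with a RefSeq promoter and 15 over all 11605 genes with one.

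Arid1a, the DNA-binding subunit of the canonical SWI/SNF complex, had 25.3, 53.4 and 33.5 CPM in Telogen and 165, 148, 147 and 174 CPM in Anagen, without overlap. Arid2, its counterpart in the PBAF form, had 77.6, 102 and 48.5 CPM in Telogen and 195, 189, 188 and 205 CPM in Anagen, again without overlap. Smarce1 (BAF57), a shared subunit, had 193, 218 and 153 CPM in Telogen and 58.5, 71.8, 76.6 and 70.8 CPM in Anagen, all 3 Telogen libraries being far above the Anagen libraries. In edgeR's quasi-likelihood test with Benjamini-Hochberg adjustment the log2 fold changes were 2.08 ± 0.27 (adjusted p = 0.000117), 1.35 ± 0.25 (adjusted p = 0.00117) and -1.44 ± 0.20 (adjusted p = 0.000184); Arid1a had 0.98 with the offsets and still rose. Smarcd3 (BAF60c) fell from a low level (-3.11 ± 0.85). Smarcc1 and Smarcc2, the scaffold subunits, rose by 1.01 ± 0.19 and 1.29 ± 0.35, but did not pass with the offsets (0.52 and 0.57, edgeR's adjusted p = 0.07 and 0.147). Smarcb1 (SNF5), a core subunit, had 24.2, 13.6 and 16.6 CPM in Telogen and 45.2, 46.8, 48.7 and 21.4 CPM in Anagen; Anagen 4 lay among the Telogen values. Its rise (1.16 ± 0.35, adjusted p = 0.0181 by edgeR) did not pass without Telogen 2 or Anagen 3 (adjusted p = 0.0599 and 0.0512), nor without Anagen 1 and Anagen 2. The rise of Smarcad1 (0.65 ± 0.23, adjusted p = 0.0371 by edgeR) did not pass without any one of Telogen 1, Telogen 2, Anagen 1, Anagen 2 and Anagen 3 (adjusted p = 0.0517 to 0.114).

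**Figure D4:**
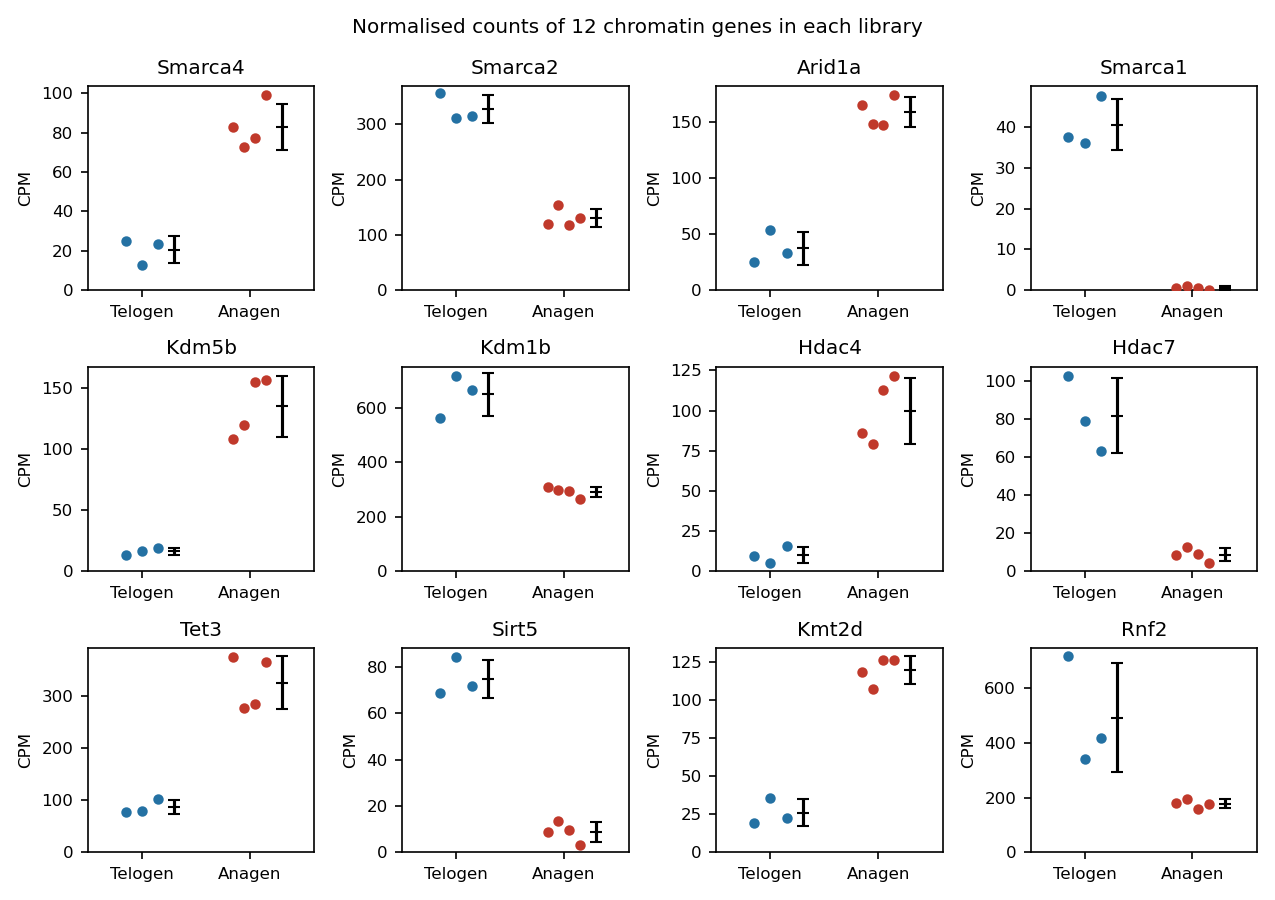
Normalised counts (CPM, y axis from 0) of 12 chromatin genes in each Telogen library (blue, n = 3) and Anagen library (red, n = 4), with mean and SD in black. Smarca4, Arid1a, Kdm5b, Hdac4, Tet3 and Kmt2d were higher in every Anagen library; Smarca2, Smarca1, Kdm1b, Hdac7, Sirt5 and Rnf2 were lower in every one.

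Of 10 CHD genes, 4 rose (40%) and Chd3os fell (10%), beside 25.8% and 23.7% of all genes. Chd4, an ATPase of the NuRD complex, had 85.3, 73.7 and 76.1 CPM in Telogen and 115, 125, 133 and 169.9 CPM in Anagen, without overlap. Chd6 had 72.5, 78.8 and 95.5 CPM in Telogen and 185, 148, 189 and 205 CPM in Anagen and Chd9 had 37.9, 52.3 and 46.6 CPM in Telogen and 81.3, 82.5, 79.1 and 96.6 CPM in Anagen, both without overlap. In edgeR's quasi-likelihood test these 3 rose by 0.79 ± 0.20 (adjusted p = 0.00809), 1.14 ± 0.20 (adjusted p = 0.000894) and 0.90 ± 0.21 (adjusted p = 0.00549). With the length and GC offsets none of the CHD genes rose by edgeR: Chd4 had -0.01, Chd6 0.36 and Chd9 0.24. Chd2 rose by 0.64 ± 0.22 (adjusted p = 0.0308) by edgeR, but not without any one of Telogen 1, Telogen 2, Anagen 1, Anagen 2, Anagen 3 and Anagen 4 (adjusted p = 0.051 to 0.0796) nor with the offsets (-0.03), and it shares 1949 bases with 1810026B05Rik. Chd3, the other NuRD ATPase, had 3.21, 7.51 and 11.9 CPM in Telogen and 12.8, 8.38, 6.89 and 8.72 CPM in Anagen, and the groups overlapped (log2 fold change 0.29 ± 0.46). Chd3os, a non-coding RNA named for the strand opposite Chd3, had 36.5, 44.9 and 64.4 CPM in Telogen and 6.48, 7.11, 3.74 and 4.72 CPM in Anagen, a fall of -3.14 ± 0.33 (adjusted p = 3.16e-05) by edgeR. No source states the strand of the counts, but no shared bases were found between the deposited gene models of Chd3 and Chd3os.

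The Polycomb genes went both ways: 16.7% rose and 33.3% fell, beside 25.8% and 23.7% of all genes. Of 12 tested, 2 rose and 4 fell (1 and 4 with the offsets; 1 rose and 3 fell without Anagen 1 and Anagen 2, and 1 rose without Anagen 1 or without Anagen 3). All 4 falls, and the rise of Cbx2, were of members of the H2A-ubiquitinating complex PRC1. Rnf2 (RING1B), its ubiquitin ligase, had 719.9, 342 and 417 CPM in Telogen and 181, 197, 158 and 177 CPM in Anagen. Every Telogen library exceeded every Anagen library by a wide margin. Bmi1, the partner of Rnf2 in the canonical complex, had 147, 353 and 175 CPM in Telogen and 92.1, 87.6, 80.4 and 81.3 CPM in Anagen, without overlap. Cbx6, a chromodomain subunit, had 869, 624 and 187 CPM in Telogen and 93.3, 85.7, 75.9 and 81.9 CPM in Anagen; the Telogen libraries themselves spread widely, with Telogen 3 lowest, and still did not overlap with Anagen. Its gene model shares 10436 bases with Npcd. By edgeR's quasi-likelihood test with Benjamini-Hochberg adjustment the log2 fold changes were -1.47 ± 0.24 (adjusted p = 0.000652) for Rnf2, -1.40 ± 0.28 (adjusted p = 0.00193) for Bmi1 and -2.73 ± 0.39 (adjusted p = 0.000253) for Cbx6 (-3.58 with the offsets, where it also fell).

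Other chromodomain subunits of PRC1 differed among themselves. Cbx2 had 11.6, 9.91 and 6.34 CPM in Telogen and 18.4, 17.5, 25.6 and 32.7 CPM in Anagen and rose by 1.34 ± 0.35 (adjusted p = 0.00925) by edgeR; with the offsets it did not pass (0.52, edgeR's adjusted p = 0.234). Cbx7 had 13.2, 17.4 and 14.9 CPM in Telogen and 9.94, 5.18, 9.08 and 4.5 CPM in Anagen and fell by 1.08 ± 0.38 (adjusted p = 0.0347) by edgeR, but not without any one of Telogen 2, Telogen 3, Anagen 2 and Anagen 4 (adjusted p = 0.06 to 0.0938); with the offsets it fell by 1.76. Ring1, the other ligase, had 17.1, 18.9 and 6.74 CPM in Telogen and 8, 5.95, 13.1 and 10.8 CPM in Anagen and a log2 fold change of -0.59 ± 0.43, with overlap.

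Ezh2, Eed and Suz12, the core of the H3K27-methylating complex PRC2, did not pass, though Suz12 did with the offsets (0.58, edgeR's adjusted p = 0.0488). Ezh2, the methyltransferase of dividing cells, had 12.5, 27.2 and 49.7 CPM in Telogen and 31.4, 38.7, 34.2 and 24.4 CPM in Anagen; the Anagen values lay within the Telogen range. Eed, which binds the methylated tail, had 51.3, 48.3 and 35.7 CPM in Telogen and 45.4, 49.6, 52.5 and 43.7 CPM in Anagen. Suz12, the scaffold, had 63.2, 80.1 and 56.7 CPM in Telogen and 95.4, 97.2, 83.1 and 112 CPM in Anagen, higher in every Anagen library than in any Telogen library. In edgeR's quasi-likelihood test the log2 fold changes were 0.11 ± 0.40 (adjusted p = 0.833), 0.08 ± 0.23 (adjusted p = 0.78) and 0.54 ± 0.21 (adjusted p = 0.0549), so that a change of Ezh2 was not detectable beside a spread of this size. Ezh1, the methyltransferase associated with resting cells, had 36.3, 10.7 and 34.5 CPM in Telogen and 69.6, 41.1, 51.6 and 64.8 CPM in Anagen, and its rise (1.07 ± 0.40, adjusted p = 0.0442 by edgeR) did not pass without any one of Telogen 2, Anagen 1, Anagen 3 and Anagen 4 (adjusted p = 0.0705 to 0.106), nor with the offsets (0.52).

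The 3 HP1 genes, which encode readers of methylated H3 lysine 9, split. Cbx1 (HP1 beta) had 39.5, 55.3 and 82.2 CPM in Telogen and 26.4, 25.6, 33.5 and 32 CPM in Anagen and fell by 1.01 ± 0.28 (adjusted p = 0.0122) by edgeR. Cbx5 (HP1 alpha) had 85.1, 99.7 and 145 CPM in Telogen and 189, 166, 187 and 185 CPM in Anagen and rose by 0.73 ± 0.22 (adjusted p = 0.0165) by edgeR. Neither pair of groups overlapped, but Cbx1 did not pass without Telogen 3 (adjusted p = 0.0584) and Cbx5 did not pass without Telogen 1 (adjusted p = 0.0546), and neither passed with the offsets (-0.22 and 0.44) or without Anagen 1 and Anagen 2. Cbx3 (HP1 gamma) had a log2 fold change of -0.05 ± 0.34.

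Of 16 lysine methyltransferase genes, 7 rose (43.75%) and 3 fell (18.75%), beside 25.8% and 23.7% of all genes. With the offsets 4 rose and 5 fell, and 6 rose and 3 fell without Anagen 1 and Anagen 2. Methyltransferase genes for H3 lysine 4 went both ways. Kmt2d (MLL4), an enzyme of enhancers, had 19.2, 36 and 22.8 CPM in Telogen and 118, 107, 126 and 126 CPM in Anagen, the lowest Anagen library being 2.98 times the highest Telogen library. Setd1a, which methylates promoters, had 3.92, 5.59 and 10.5 CPM in Telogen and 32.9, 33.5, 31.9 and 38.7 CPM in Anagen, without overlap. Kmt2a (MLL1) had 468, 310.4 and 365 CPM in Telogen and 206, 208, 154 and 159 CPM in Anagen, with every Anagen library below every Telogen library. In edgeR's quasi-likelihood test with Benjamini-Hochberg adjustment the log2 fold changes were 2.20 ± 0.26 (adjusted p = 6.77e-05), 2.37 ± 0.36 (adjusted p = 0.000379) and -1.07 ± 0.20 (adjusted p = 0.00145). Kmt2d, the longest of the members, had 0.38 with the offsets and did not pass (edgeR's adjusted p = 0.255), while Setd1a kept 1.46 and Kmt2a went to -2.37. Kmt2b (1.94 ± 0.47) and Setd1b (1.12 ± 0.30) also rose, but with the offsets they had 0.80 and -0.06 and did not pass (edgeR's adjusted p = 0.13 and 0.886). Setd2, the H3 lysine 36 enzyme, rose by 0.98 ± 0.24, and Kmt2e by 1.02 ± 0.23; Kmt2e shares 874 bases with Srpk2.

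The H3 lysine 9 enzymes of this set also parted. Setdb1, which silences retroelements, had 10.5, 16.1 and 25.2 CPM in Telogen and 34, 38.9, 42.4 and 36.8 CPM in Anagen and rose by 1.14 ± 0.32 (adjusted p = 0.0122) by edgeR, though not without Anagen 1 and Anagen 2. Setdb2 fell by 1.54 ± 0.34. Setd3, known as a histidine methyltransferase of actin, had 109, 119 and 129 CPM in Telogen and 42.1, 42.6, 39.5 and 30.3 CPM in Anagen and fell by 1.62 ± 0.21 (adjusted p = 0.000114) by edgeR, without overlap. Setd7 and Setd8, with log2 fold changes of -0.44 ± 0.22 and -0.21 ± 0.22, did not pass.

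The lysine demethylases held 7 rises (43.75%) and 2 falls (12.5%) among 16 genes, beside 25.8% and 23.7% of all genes. With the offsets 6 rose and 2 fell, and 6 rose and 1 fell without Anagen 1 and Anagen 2. Kdm5b (JARID1B), which removes H3 lysine 4 methylation, had 13.2, 16.6 and 19 CPM in Telogen and 108, 119, 155 and 157 CPM in Anagen (NM_152895, chromosome 1, 134560178 to 134632878). The lowest Anagen library was 5.66 times the highest Telogen library, and the level rose 8.28-fold. Kdm5c, its X-linked paralogue, had 9.62, 5.91 and 9.91 CPM in Telogen and 49.3, 41.8, 45 and 53.6 CPM in Anagen, again far apart. Kdm1a (LSD1), the flavin-dependent H3 lysine 4 demethylase, had 44.5, 44.8 and 39.6 CPM in Telogen and 111, 117, 127 and 95.7 CPM in Anagen, without overlap. Kdm1b (LSD2), its paralogue, went the other way, with 564, 717 and 665 CPM in Telogen and 309, 299, 294 and 266 CPM in Anagen. The lowest Telogen value of Kdm1b was well above the highest Anagen value; its gene model shares 513 bases with Dek. By edgeR's quasi-likelihood test with Benjamini-Hochberg adjustment the log2 fold changes were 3.05 ± 0.26 (adjusted p = 6.85e-06) for Kdm5b, 2.49 ± 0.29 (adjusted p = 6.42e-05) for Kdm5c, 1.39 ± 0.20 (adjusted p = 0.000275) for Kdm1a and -1.15 ± 0.16 (adjusted p = 0.000225) for Kdm1b. Kdm5c had 1.39 with the offsets and still rose.

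Among demethylases of other lysines, more rose than fell. Kdm3a, an H3 lysine 9 demethylase, had 29.6, 15.7 and 39 CPM in Telogen and 78.4, 72, 110.1 and 99.1 CPM in Anagen and rose by 1.68 ± 0.32. Kdm2a, Kdm4b and Kdm7a rose by 1.65 ± 0.25, 1.63 ± 0.51 and 1.27 ± 0.31; Kdm4b did not pass with the offsets (0.73) or without Anagen 1 and Anagen 2. Kdm4c had 179, 106 and 192 CPM in Telogen and 90.3, 87.3, 76.7 and 104 CPM in Anagen and fell by 0.83 ± 0.23 (adjusted p = 0.0125) by edgeR, though not without Anagen 1 and Anagen 2. The H3 lysine 27 demethylase genes Kdm6a and Kdm6b did not pass. Kdm6a (UTX) had 36.9, 137 and 88.2 CPM in Telogen and 75.1, 86.8, 91.3 and 84.4 CPM in Anagen. Kdm6b (JMJD3) had 2969.8, 291 and 2778 CPM in Telogen and 2799, 2324, 2994 and 2031 CPM in Anagen. For Kdm6b, Telogen 2 stood far below the other 6 libraries; the log2 fold change was 0.33 ± 0.57 (adjusted p = 0.652) by edgeR, and -0.17 without Telogen 2. Per length, Kdm6b had the highest Anagen level of all members (289 ± 214 RPKM in Telogen and 391 ± 65.9 RPKM in Anagen), followed by Hdac2 (321 ± 88 RPKM in Telogen and 247 ± 33.2 RPKM in Anagen), RPKM being counts divided by gene length and library total. In Telogen the order of these genes was the reverse, and their library values overlapped.

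Among 17 deacetylase genes, 4 rose (23.5%) and 3 fell (17.6%), beside 25.8% and 23.7% of all genes. With the offsets, or without Anagen 1 and Anagen 2, 3 rose and 3 fell. The class IIa enzymes, which shuttle between nucleus and cytoplasm, went apart. Hdac4 had 9.79, 5.43 and 15.7 CPM in Telogen and 86.2, 79.2, 113 and 121 CPM in Anagen (NM_207225, chromosome 1, 91928779 to 92180341), so that the lowest Anagen value was 5.06 times the highest Telogen value. Hdac7 had 102, 79.1 and 63.4 CPM in Telogen and 8.72, 12.8, 9.21 and 4.65 CPM in Anagen (NM_001204276, chromosome 15, 97792664 to 97831767), the reverse arrangement, and it shares 29 bases with Slc48a1. In edgeR's quasi-likelihood test with Benjamini-Hochberg adjustment the log2 fold changes were 3.28 ± 0.37 (adjusted p = 4.72e-05) and -3.20 ± 0.35 (adjusted p = 3.65e-05), or 9.75-fold higher and 9.21-fold lower. With the offsets they were 2.42 and -4.09, and both calls held. Hdac5, another class IIa gene, had 23.1, 13.6 and 13.1 CPM in Telogen and 25.2, 35.7, 40.4 and 34.5 CPM in Anagen. It rose by 1.03 ± 0.31 (adjusted p = 0.0172) by edgeR, but not without Telogen 2, Telogen 3 or Anagen 3 (adjusted p = 0.0518, 0.0513 and 0.0509), nor with the offsets (0.16).

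The class I genes Hdac1 and Hdac2, which act redundantly in the epidermis, did not pass. Hdac1 had 25.3, 26.1 and 21.2 CPM in Telogen and 25.6, 25.6, 24.5 and 24.7 CPM in Anagen, a narrow spread with overlap. Hdac2 had 653, 869 and 500.1 CPM in Telogen and 485, 537, 504 and 405 CPM in Anagen, with overlap. Log2 fold changes from edgeR's quasi-likelihood test were 0.05 ± 0.24 (adjusted p = 0.87) and -0.48 ± 0.21 (adjusted p = 0.0758). Of the sirtuins, Sirt5, a mitochondrial enzyme that removes succinyl and malonyl groups, had 68.7, 84.2 and 71.7 CPM in Telogen and 8.79, 13.4, 9.66 and 3.29 CPM in Anagen, with the lowest Telogen library at 5.13 times the highest Anagen library. Sirt1, a nuclear deacetylase, had 189, 99.3 and 209 CPM in Telogen and 69.3, 77, 67.8 and 79.9 CPM in Anagen, without overlap. Sirt7, a nucleolar enzyme, had 21.7, 16.3 and 28.3 CPM in Telogen and 45.5, 39.5, 38.3 and 35.8 CPM in Anagen, also without overlap. Log2 fold changes from edgeR's quasi-likelihood test were -3.09 ± 0.40 (adjusted p = 0.000112), -1.17 ± 0.25 (adjusted p = 0.00296) and 0.85 ± 0.27 (adjusted p = 0.0226); Sirt7 did not pass without Telogen 2 or Anagen 1 (adjusted p = 0.0638 and 0.0659), nor without Anagen 1 and Anagen 2. Sirt6, which acts at telomeres and on H3 lysine 9, rose by 2.55 ± 0.50 from a low level.

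Of 7 DNA methylation genes, 5 rose (71.4%) and 0 fell in the edgeR test, beside 25.8% and 23.7% of all genes. With p unadjusted 1 fell, and with DESeq2 1. With the offsets 3 rose and 1 fell, and 5 rose and 0 fell without Anagen 1 and Anagen 2. Tet3, which oxidises methylcytosine, had 78.2, 79.4 and 103 CPM in Telogen and 374, 277, 285 and 364 CPM in Anagen (NM_183138, chromosome 6, 83362374 to 83441678). Tet2, its paralogue, had 28.3, 50.3 and 21.8 CPM in Telogen and 99.7, 113, 144 and 132 CPM in Anagen, and in both genes the lowest Anagen library was above the highest Telogen library. Tet1 had 6.41, 10.9 and 25.6 CPM in Telogen and 0.288, 5.68, 7.34 and 2.36 CPM in Anagen, the opposite tendency with overlap. By edgeR's quasi-likelihood test with Benjamini-Hochberg adjustment the log2 fold changes were 1.90 ± 0.21 (adjusted p = 3.9e-05), 1.86 ± 0.30 (adjusted p = 0.000562) and -1.85 ± 0.79 (adjusted p = 0.072). With the offsets Tet3 had 0.78 and still rose. Dnmt1, the maintenance methyltransferase, had 90.6, 75.1 and 47.4 CPM in Telogen and 131, 131, 162 and 119 CPM in Anagen, and Dnmt3a, a de novo enzyme, had 33.5, 45.4 and 19 CPM in Telogen and 98.2, 77.9, 72.5 and 119.6 CPM in Anagen. Neither overlapped; their rises were 0.93 ± 0.25 (adjusted p = 0.00939) and 1.49 ± 0.32 (adjusted p = 0.00287) by edgeR, but 0.11 and 0.47 with the offsets, where neither passed (edgeR's adjusted p = 0.75 and 0.26). Dnmt3b was low, with 1.78, 5.27 and 2.18 CPM in Telogen and 5.76, 5.35, 7.47 and 3.5 CPM in Anagen, and did not pass (0.83 ± 0.55).

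Dnmt3l, the catalytically inactive partner of Dnmt3a that is known from germ cells, had 0 counts in all 3 Telogen libraries and 250, 443, 322 and 130 counts in Anagen, or 18, 24.4, 20.7 and 9.29 CPM. Against a floor of 3 counts over the Telogen group it was at least 105-fold higher (at least 66.1-fold without Telogen 2). Its gene model (NM_001081695, chromosome 10, 78042287 to 78063622) shares 1324 bases with Aire, which had 52 counts over all libraries. Its upstream window, shown because it differs from those of most members, held 5 CG dinucleotides (RefSeq, GRCm38.p6, chr10:78042037-78042286, plus strand; 250 bases before the start, 5′ to 3′, CG in capitals).
Dnmt3l: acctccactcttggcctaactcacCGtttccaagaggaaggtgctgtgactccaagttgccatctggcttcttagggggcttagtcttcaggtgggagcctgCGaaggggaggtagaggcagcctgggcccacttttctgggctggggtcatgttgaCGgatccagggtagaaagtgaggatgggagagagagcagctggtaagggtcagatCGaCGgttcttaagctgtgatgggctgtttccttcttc

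Over all members with a RefSeq promoter, the median was 21 CG dinucleotides for the 33 that rose, the 17 that fell and the 41 that did not pass alike. Exact matches to 7 motifs were searched on both strands of the same windows. Each window lies before the RefSeq start nearest to the start of the deposited gene model. In some members these starts were far apart, including Setd5 (27296 bases), Chd8 (20188), Tet1 (7310), Smarcd2 (5340) and Sirt5 (5181). The E-box CACGTG occurred in 6.45% of the members and 8.19% of all promoters: in 0 of the 33 that rose, in 4 of the 17 that fell (Sirt1, Cbx6, Kdm4c and Bmi1) and in 2 of the 41 that did not pass. The E2F motif TTTCCCGC occurred in 5.38% of the members and 1.61% of all promoters (1, 0 and 4 promoters of those that rose, fell and did not pass), and the E2F motif TTTGGCGC in 1.08% and 0.827%. The CRE TGACGTCA occurred in 1.08% and 2.66%, the ETS motif CCGGAAGT in 3.23% and 5.44%, the palindromic NRF1 motif in 2 of the 93 members and 174 of the 11605 promoters, and CCAAT in 34.4% and 35.5%. These shares rest on few matches, and no test was made between them.

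Of 5 bromodomain genes, 1 rose (20%) and 0 fell in the edgeR test, beside 25.8% and 23.7% of all genes. With p unadjusted 0 fell, with DESeq2 2 rose and 0 fell, and with the offsets 2 fell. Brd2 and Brd3, which read acetylated histones, had log2 fold changes of 0.08 ± 0.23 and -0.13 ± 0.22. Of 5 tested ARID genes outside SWI/SNF, Arid5a fell by 2.05 ± 0.60 (adjusted p = 0.0157) by edgeR (-2.68 without Anagen 2, and -2.88 with the offsets), but not without Telogen 1 (adjusted p = 0.0708). None of them rose in the edgeR test; 1 rose with p unadjusted, with DESeq2, and without Telogen 1 or Telogen 3.

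Of 9 tested PRDM genes, 4 rose (44.4%) and 1 fell (11.1%), beside 25.8% and 23.7% of all genes. With the offsets 2 rose and 2 fell, and 2 rose and 1 fell without Anagen 1 and Anagen 2. The rises numbered 2 without Anagen 3 or Anagen 4, and 1 without Telogen 1. Prdm1 (BLIMP1), a repressor known in skin from the sebaceous gland and dermal papilla, had 1.6, 0.48 and 11.3 CPM in Telogen and 21.7, 22.7, 37.4 and 23.2 CPM in Anagen. Telogen 3 was the highest of the Telogen libraries and still below every Anagen library. Its rise was 2.58 ± 0.76 (adjusted p = 0.0163) by edgeR, 4.67 without Telogen 3, and did not pass without Telogen 1 (adjusted p = 0.0535). Prdm8 had 0 counts in Telogen and 26.7, 6.39, 7.02 and 4.07 CPM in Anagen, where Anagen 1 was highest; it was at least 59.8-fold higher, and at least 33.4-fold without Anagen 1 (37.7-fold without Telogen 2). Prdm4 had 13.9, 19.3 and 8.12 CPM in Telogen and 20.03, 28.3, 25.3 and 35.6 CPM in Anagen, and Prdm9, known for meiotic recombination, was under 8 CPM everywhere. Their rises (0.98 ± 0.35, adjusted p = 0.0378, and 2.13 ± 0.81, adjusted p = 0.0486, by edgeR; 3.54 for Prdm9 without Telogen 3) did not pass for Prdm4 without any one of Telogen 1, Telogen 3, Anagen 2, Anagen 3 and Anagen 4 (adjusted p = 0.0645 to 0.103) or for Prdm9 without any one of Telogen 1, Telogen 2, Anagen 1, Anagen 3 and Anagen 4 (adjusted p = 0.0752 to 0.124), nor with the offsets (0.41 and 1.96).

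Where paralogues can replace each other in a complex, their shares of the pair's summed RPKM were compared, as a description without a test. Smarca2 made up 94.6% ± 1.53 (SD, n = 3) of Smarca2 plus Smarca4 in Telogen and 63.3% ± 4.72 (SD, n = 4) in Anagen, with ranges of 93.6% to 96.4% and 59.0% to 70.0%. Smarca2 thus stayed the more abundant transcript in every library. Smarca1 made up 9.81% ± 2.39 of Smarca1 plus Smarca5 in Telogen and 0.171% ± 0.164 in Anagen. Kmt2c, an enhancer methyltransferase like Kmt2d, made up 89.3% ± 4.16 of the pair in Telogen and 65.9% ± 1.71 in Anagen, and Cbx1 made up 78.5% ± 1.88 and 52.8% ± 2.79 of Cbx1 plus Cbx5. Arid1a made up 46.9% ± 13 of Arid1a plus Arid1b in Telogen and 71.6% ± 3.37 in Anagen. Hdac1 made up 3.62% ± 0.603 and 5.07% ± 0.553 of Hdac1 plus Hdac2. None of these 6 pairs overlapped between the groups. Of all single genes tested, 29.8% did not overlap with higher and 24.8% with lower Anagen values. The shares carry no length or GC offsets, and with the offsets neither Cbx1 nor Cbx5 passed. Hdac1 and Hdac2 had nearly equal log2 fold changes with the offsets (0.06 and 0.05), beside 0.05 and -0.48 without them. The shares of Ezh1 and Ezh2, Ring1 and Rnf2, Smarcc1 and Smarcc2, Dnmt3a and Dnmt3b, Setd1a and Setd1b, Kdm6a and Kdm6b, and Chd3 and Chd4 overlapped.

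**Figure D5:**
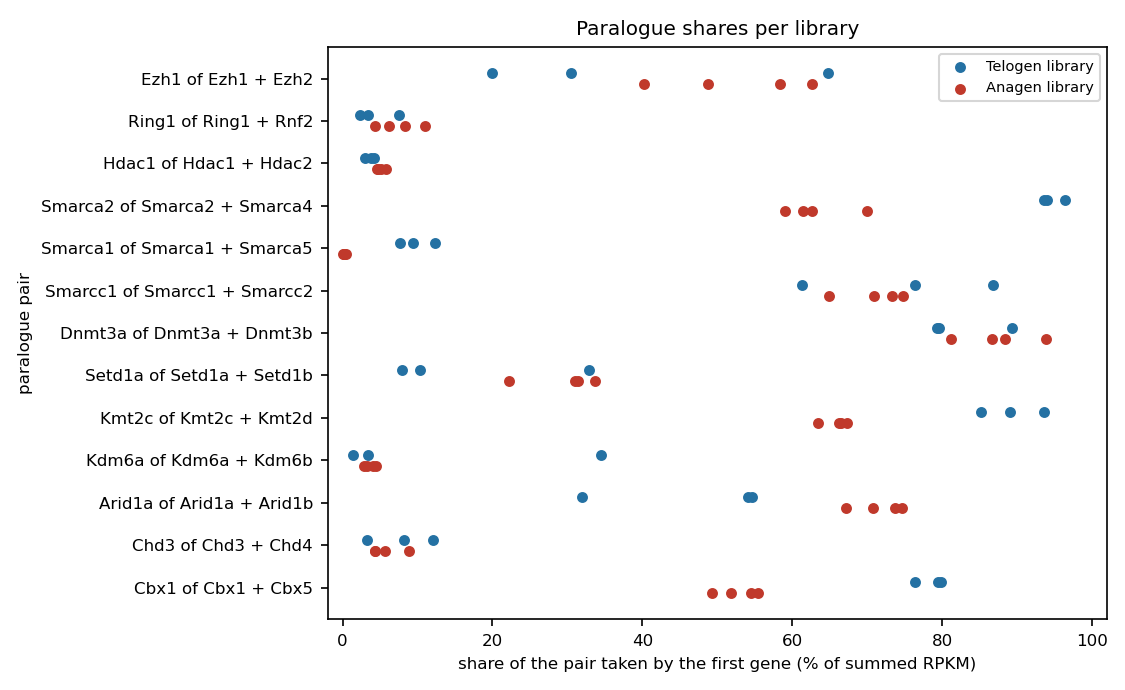
Share of the first gene in the summed RPKM of 13 paralogue pairs (x axis, %), with 1 point per Telogen library (blue) and Anagen library (red). Smarca2 goes from 94.6% to 63.3% of its pair on average, and Cbx1 from 78.5% to 52.8%, while the points of 7 pairs overlap. The shares carry no length or GC offsets.

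Genes of the same complexes that the symbol rule does not take in rose more often than they fell, by a smaller margin with the offsets. This list too was chosen with earlier results known. Of 109 listed partners, 106 were tested: 43 rose (40.6%) and 18 fell (17%), beside 25.8% and 23.7% of all genes. With the offsets 26 of the 106 rose and 15 fell, beside 2554 (20.8%) and 2932 (23.9%) of all 12266 genes. Without Anagen 1 and Anagen 2, 30 rose and 10 fell, with no share of all genes from that fit beside them. Among 21 Polycomb partners 10 rose and 4 fell, with log2 fold changes of 2.16 ± 0.31 for Phc2 and 1.39 ± 0.24 for Phc3, polyhomeotic subunits of PRC1. Among 14 acetyltransferases and coactivators 6 rose and 4 fell; Crebbp (CBP) rose by 2.30 ± 0.42 and Kat2b (PCAF) by 1.40 ± 0.22, and Ncoa2 fell by 0.92 ± 0.20. Among 20 other methyltransferases and subunits of the H3 lysine 4 complexes 10 rose and 2 fell; Nsd1 rose by 1.98 ± 0.40 and Cxxc1 by 1.54 ± 0.25, and Dpy30 fell by 1.14 ± 0.30, but had 0.04 with the offsets and did not pass (edgeR's adjusted p = 0.887). Among 19 corepressor subunits 5 rose and 5 fell, including Gatad2b (2.16 ± 0.56, and 3.01 without Telogen 3), which rose, and Mbd2 (-1.60 ± 0.19) and Rcor3 (-1.11 ± 0.17), which fell. Among 11 DNA methylation partners 2 rose and 1 fell, Gadd45a rising by 0.91 ± 0.24. Among 21 remodeller subunits 10 rose and 2 fell: Baz1a, the partner of Smarca5, rose by 2.74 ± 0.31, Srcap, the ATPase that deposits H2A.Z, by 2.26 ± 0.38, and Baz2a by 1.87 ± 0.28, while the SWI/SNF subunit gene Ss18 fell by 2.33 ± 0.18. With the offsets Phc2 had 1.27, Crebbp 1.51, Ncoa2 -1.58, Nsd1 1.19, Cxxc1 0.94, Srcap 1.12 and Baz2a 1.02 on the log2 scale, and these calls held. Other partner calls did not hold with the offsets. Among them were the rises of the acetyltransferase genes Kat2a (0.55), Kat6a (0.05), Kat7 (0.45) and Ep300 (-0.20). The falls of Hat1 (-0.13), Kat8 (-0.97) and Naa10 (-0.75) did not pass either, nor did the rises of Asxl1 (0.97), Ehmt2 (0.06), Whsc1 (0.08) and Whsc1l1 (-0.03). Some of these counts turn on single libraries. Of the acetyltransferases, 2 rose without Anagen 4 and 3 without Telogen 2, and 2 fell without Anagen 1, Anagen 3 or Anagen 4 and 1 without Telogen 2. Of the Polycomb partners 2 fell without Telogen 1, and of the H3 lysine 4 group 1 fell without any one of Telogen 1, Telogen 2, Anagen 1, Anagen 2 and Anagen 3.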

How the data were processed

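For 3 Telogen and 4 Anagen samples the authors deposited 1 table with raw counts of reads in each gene and the RPKM made from them, per the file headers; RNA came from Trizol extraction and the Ovation RNA-Seq System V2 kit, per the labels' protocols. Per the submitters' processing notes, mm10 was the build. Aligner, counter, strandedness and multi-mapping rules were not given in the sources used here, so genes with near-identical copies (Smarca5 and Smarca5-ps) or overlapping neighbours are uncertain. The deposited RPKM equalled count over gene length and total in 107905 of 107905 values (relative tolerance 1e-09); they served for levels per length.

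Counts were tested with edgeR's quasi-likelihood test (edgeR 4.0.16, R 4.3.3; robust fits, TMM factors, minimum count 10, minimum total 15) over 12266 genes, 2 groups, no covariate. P-values were Benjamini-Hochberg adjusted over all genes tested, at a threshold of 0.05. Standard errors are the log2 fold change over the square root of F. A fold against 0 counts is a lower bound from 3 counts over the group, which covers counting error only; 3 counts are 0.176 to 0.589 CPM in a library. Offsets for length and GC content came from splines with 4 degrees of freedom, fitted per library; GC content was known for 96.6% of genes and 120 of 122 members, and genes without it (Chd3os and Setd8 among the members) took the median. Spearman correlations of counts were 0.934 to 0.978 within groups and 0.702 to 0.797 between them, and no library was a copy of another. Alternatives were DESeq2 1.42.0, RLE scaling, no filter, thinning to the lowest total, the offsets, a replicate block, leaving out each library, and leaving out Anagen 1 and Anagen 2 together. Promoters came from RefSeq (GRCm38.p6), found for 93 of 122 members. The members, partner genes and marker lists were chosen with earlier results of these data known. Members named with all library values were those known in skin or stem cell chromatin, and up to 3 per role group and direction by fold change among called, non-overlapping members above the median expression of all genes tested; other members were named with single values. Some genes that this rule takes in are not reported here.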

Additional observations from a re-analysis of the deposited data

Results flagged for a closer look

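In 3 of 51 named members, 1 Anagen library stood apart from the other 3 by Dixon's criterion, which chance passes in about 1 in 20 groups. Smarcb1 was lowest in Anagen 4 (gap over range 0.873), at 21.4 CPM beside 45.2 to 48.7 CPM. Prdm1 was highest in Anagen 3 (0.906), at 37.4 CPM beside 21.7 to 23.2 CPM. Cbx5 was lowest in Anagen 2 (0.852), at 166 CPM beside 185 to 189 CPM.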

How the results depend on the processing

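Leaving out each library in turn gave 35 to 45 chromatin genes that rose and 19 to 20 that fell (42 and 20 with all libraries), and 34 to 42 partner genes that rose and 13 to 18 that fell (43 and 18). With length and GC offsets 25 chromatin genes and 26 partners rose, and without Anagen 1 and Anagen 2 10 partners fell; the first removes differences that follow length and GC content by construction and the second has fewer samples. The other counts stayed within 1.5 times under DESeq2, RLE scaling, no filter and thinning to the lowest total. Same-numbered samples did not deviate together (r = 0.004, 0.079 and -0.045 across genes for numbers 1 to 3), so the numbers were not taken as pairs; with a replicate block 35 chromatin genes rose and 20 fell, and 33 partners rose and 13 fell. Of 62 called chromatin genes, 49 kept their call without any 1 library (32 that rose, 17 that fell), and 19 that rose and 16 that fell kept it under all 14 alternatives. Over 76 named genes and these alternatives, 960 of 1064 values stayed on their side of the threshold with the same sign, 80 lost and 8 gained a call, and 16 changed sign. None of these 16 sign changes was past the threshold under the alternative, and the cause was not tested. With the offsets the log2 fold change was 0.046 for Hdac2, -0.62 for Kdm6b, -0.014 for Chd4, -0.69 for Chd3 and 0.041 for Dpy30. Further members that are not among the 76 also changed sign with the offsets, including Setd1b (-0.06) and Chd2 (-0.03). Of these further members, Kmt2c (-1.11), Brd2 (-0.76) and Prdm2 (-0.77) were past the threshold with the offsets. Hdac1 had -0.0085 under DESeq2 and -0.0076 under RLE scaling, Kdm6a had 0.11 with the replicate block, and without Anagen 1 and Anagen 2 Ezh2 had -0.022 and Kdm6a 0.0093. Leaving out each library in turn gave -0.25 to 0.70 for Ezh2, -0.051 to 0.20 for Eed, -0.025 to 0.12 for Hdac1, -0.41 to 0.44 for Kdm6a, -0.17 to 0.73 for Kdm6b and -0.067 to 0.78 for Chd3. Depth limits the lowest members: 3 counts were 0.176 to 0.589 CPM, so changes of Kdm8, Setd4 or Prdm10 were hardly detectable.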
